A study of Mus musculus with 4 samples.

Results

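The 41 genes of the endoplasmic reticulum (ER) stress and integrated stress responses were followed in mouse heart muscle cells under pressure overload. They were taken by gene symbol, as known sensors, transcription factors and target genes of these responses, and make up 41 of the 22322 genes measured. RNA sequencing was performed on isolated cardiomyocytes from 2 hearts of sham-operated mice (sham 1 and sham 2) and 2 hearts of mice with transverse aortic constriction (TAC 1 and TAC 2). TAC narrows the aorta, so that the left ventricle pumps against a raised pressure and fails with time. Per the methods of the study, the mice were male, were 2 months old at the operation under ketamine and xylazine, and had echocardiography 14 weeks after it. Organ weights are also given for 14 weeks after surgery, but the account of the cell isolation speaks of 14-week-old mice, so the interval from operation to cell isolation is not settled, and the sources used here do not give the strain. No transgene or drug treatment separated the groups. Each sample held part of the myocytes of a single heart, released by Langendorff perfusion with enzymes, and all 4 samples went through that procedure. The labels do not name the animals, so the p-values below measure the spread between these 4 samples.

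Proteins that enter the ER fold there with the help of chaperones, lectins and disulfide isomerases. When unfolded protein builds up, 3 membrane sensors respond. IRE1α (Ern1) splices the Xbp1 mRNA, PERK (Eif2ak3) phosphorylates the translation factor eIF2α, and ATF6 is cut in the Golgi to release a transcription factor. XBP1 and ATF6 raise chaperone and degradation genes. Phosphorylated eIF2α, which other kinases also produce in response to amino acid shortage, haem shortage or viral RNA, slows general translation and favours translation of ATF4, whose targets serve amino acid uptake and synthesis and feed back on the response. In the heart, ATF6 is known for inducing protective chaperones in myocytes. The counts analysed here are per gene, so the splicing of Xbp1, the cleavage of ATF6, the phosphorylation of eIF2α and the translation of Atf4 were not measured.

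The libraries held 24237777 to 32118323 counts, with 14495 to 14949 genes detected in each. All 12 cardiomyocyte markers were present in every library, with a summed level of 77720 and 86620 CPM (counts scaled to a common library size with TMM factors) in sham and of 84420 and 81160 CPM in TAC. The 13 mitochondrial mRNAs took 47.42% of the counts in TAC 1 and 39.84% to 40.85% in the other 3 libraries. Markers of other heart cells were lower in TAC for 12 of 12 endothelial genes (667.3 to 787.3 CPM summed in sham, 377.2 to 519.5 in TAC), 12 of 12 fibroblast genes (212.1 to 297.6 and 132.6 to 174.9), 12 of 12 macrophage genes (75.83 to 147.7 and 40.81 to 76.23) and 10 of 10 mural genes (764.8 to 802.8 and 443.1 to 583.5), and none of them was at 0 in a library. By edgeR 4 endothelial, 3 fibroblast and 2 mural genes were called lower, and 6 macrophage genes had an unadjusted p under 0.05 without a call. Their part in the results below was not tested. In such bulk samples, fewer cells of a type and less RNA per cell cannot be told apart.

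Of the 41 genes, 40 were tested, and 2 rose in TAC, Atf6 and Ddit4. The test was the quasi-likelihood test of edgeR, with p-values adjusted by the Benjamini-Hochberg method over all 12499 genes tested, and a gene was called at an adjusted p under 0.05. No member was called lower by that test with its main settings, by DESeq2 or by limma, while under other edgeR settings Eif2ak3 or Ppp1r15a was. The same test called 5.01% of all genes, 2.58% as higher and 2.43% as lower, so that 2 of 40 is close to the share among all genes. An unadjusted p under 0.05 was reached by 8 members, against 27.5% of all genes. Both TAC libraries lay above both sham libraries for 12 members and below them for 4, against 29.8% and 30.3% of all genes. For the other 24 members the groups overlapped. The median log2 fold change of the 40 members was 0.08, with values from -0.64 to 1.21, and that of all genes was -0.01. With scaling by total counts in place of TMM, the median over all genes shifted to -0.20 and that of the members to -0.11, so that the sign of the members' median changed while it stayed above that of all genes. The remaining member, Phgdh, the first enzyme of serine synthesis, had 8 counts in each of the 4 libraries and was too low to test.

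**Figure D1:**
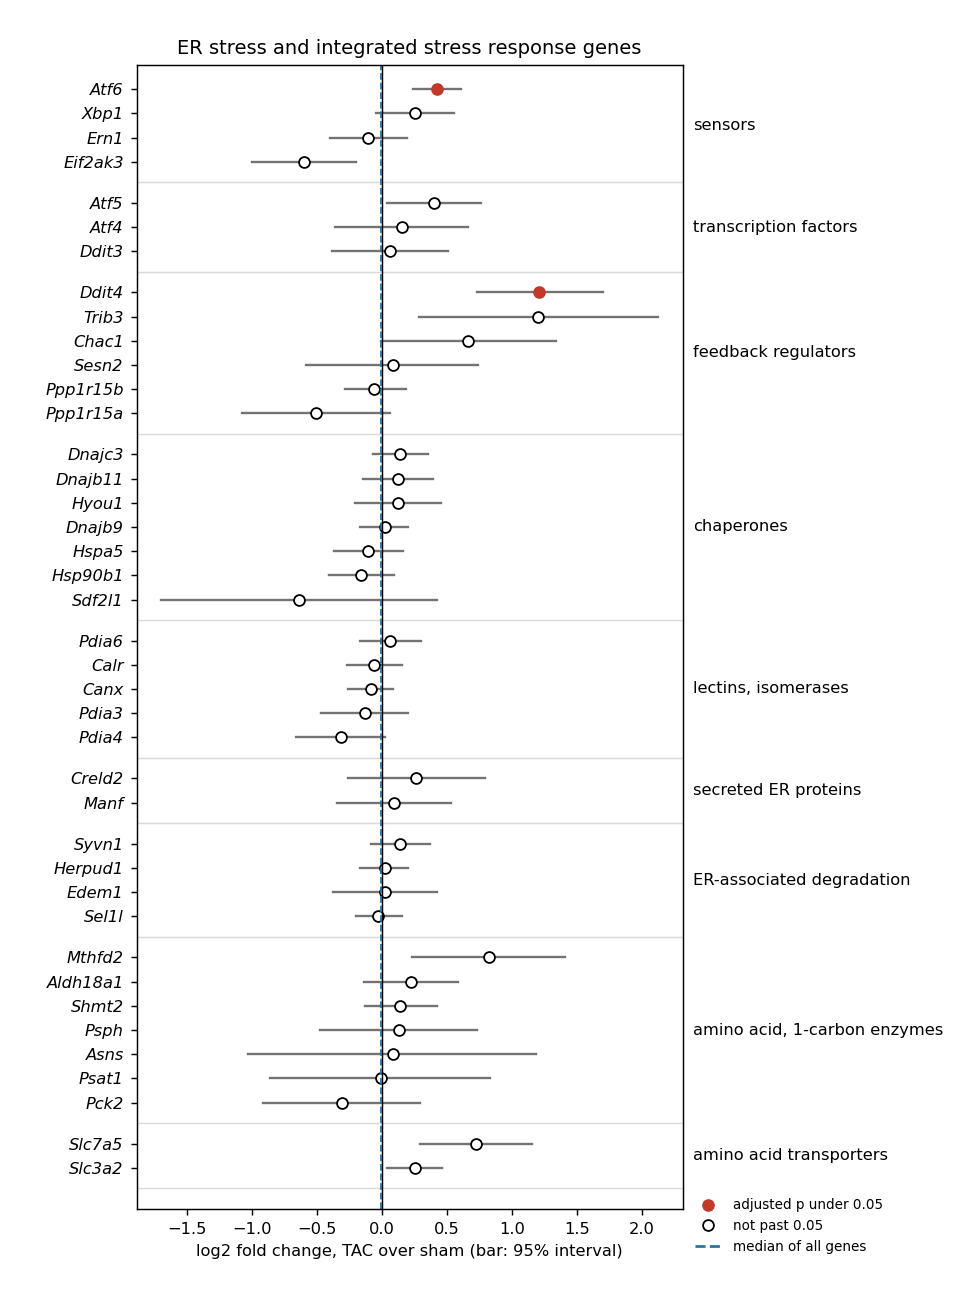
Log2 fold change of each of the 40 tested members in TAC over sham (x axis), grouped by role, with bars for the 95% interval. Filled points mark the 2 called genes, Atf6 at 0.42 and Ddit4 at 1.21, the dashed line is the median of all genes, and most chaperone and degradation genes lie close to it.

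Among the sensors, the mRNA of Atf6 rose, while that of Eif2ak3 was lower in both TAC libraries without passing the adjusted threshold. Atf6 (chr1:170704674-170867771, minus strand, GRCm38, the build that mm10 names) stood at 184 and 166 CPM in sham 1 and 2 and 237 and 234 CPM in TAC 1 and 2. The groups did not overlap, and the TAC libraries differed from each other by less than the sham libraries did. The log2 fold change was 0.42 ± 0.08 (SE), a 1.34-fold rise (adjusted p = 0.0311, edgeR). This call depended on the scaling. With total counts the log2 fold change was 0.23 (adjusted p = 0.303), and the call was also lost without sham 2 (0.36, adjusted p = 0.0714) or without TAC 1 (0.41, adjusted p = 0.0824). TAC 1 is the library with the high mitochondrial share, and with totals without mitochondrial mRNAs the log2 fold change was 0.32 (adjusted p = 0.0695).

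Eif2ak3, the gene of PERK, was a low transcript with 6.83 and 6.19 CPM in sham 1 and 2 and 4.02 and 4.58 CPM in TAC 1 and 2. Both TAC values lay under both sham values, and the log2 fold change was -0.60 ± 0.17 (adjusted p = 0.0846, edgeR). Its exons overlap the antisense gene Gm43292, and the sources used here do not say whether the counting used strand. On the length-corrected scale of FPKM (fragments scaled by transcript length and library size, as deposited), Atf6 was the most abundant of the 3 sensor genes, with a mean over the 4 libraries of 28.2, against 2.39 for Ern1 and 1.28 for Eif2ak3. The ratio of Atf6 to Eif2ak3 in FPKM was 16.8 and 16.7 in the sham libraries and 28.7 and 31.9 in the TAC libraries. Ern1 had a log2 fold change of -0.11 (95% interval -0.40 to 0.19). Xbp1, the transcription factor gene that IRE1α acts on, had 0.25 (-0.05 to 0.55), with 49.1 CPM in sham 1 and 49.1 CPM in TAC 1. Its TAC values were at or above the highest sham value, and neither gene was called.

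The 3 transcription factor genes of the integrated stress response were not called. Atf4, the central factor, had the highest mean FPKM of the role at 25.4, and stood at 43.9 and 39.8 CPM in sham 1 and 2 and 58.9 and 34.1 CPM in TAC 1 and 2. The TAC libraries were the highest and the lowest of the 4, and the log2 fold change was 0.15 (95% interval -0.36 to 0.66). Without TAC 2 it was 0.50 and was called (adjusted p = 0.0207, edgeR), while its lowest value over the alternatives was -0.30. Atf5, a related factor whose translation is also favoured by eIF2α phosphorylation, had 9.80 and 7.68 CPM in sham 1 and 2 and 12.0 and 11.1 CPM in TAC 1 and 2. The groups did not overlap, and the log2 fold change was 0.40 ± 0.16 (adjusted p = 0.151, edgeR). The exons of Atf5 overlap Il4i1 and Nup62 on the opposite strand. Ddit3, which encodes the factor CHOP, linked to cell death under lasting ER stress, had a log2 fold change of 0.06 (-0.39 to 0.51), and it shares exon sequence with Mars on the opposite strand.

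The feedback regulators held the largest differences among the members. Their median log2 fold change was 0.37, and it stayed positive at 0.19 with total counts. Ddit4 (chr10:59949669-59951834, minus strand), which encodes REDD1, an inhibitor of mTORC1 signalling, had 6.86 and 5.53 CPM in sham 1 and 2 and 17.0 and 11.7 CPM in TAC 1 and 2. Every TAC value was well above both sham values, and the TAC libraries differed more from each other than the sham libraries did. The log2 fold change was 1.21 ± 0.21, a 2.32-fold rise (adjusted p = 0.026, edgeR). Ddit4 was called under every alternative run, with log2 fold changes from 0.84 to 1.46 and adjusted p from 4.58e-05 to 0.0485.

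Trib3, a pseudokinase gene induced by ATF4 and CHOP, was at the low end of the data, with 35 and 18 counts in sham 1 and 2 and 66 and 40 counts in TAC 1 and 2. Scaled to CPM these were 1.11, 0.626, 2.37 and 1.64, and the groups did not overlap. The log2 fold change of 1.20 ± 0.39 was close to that of Ddit4 in size but had a wider error and did not pass (adjusted p = 0.108, edgeR). Chac1, which degrades glutathione, had 0.66 (-0.01 to 1.34), with both TAC libraries above both sham libraries and no call (adjusted p = 0.187). Sesn2, the gene of a leucine sensor, had 0.08 (-0.59 to 0.74).

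The 2 regulatory subunits that bring protein phosphatase 1 to eIF2α, and so restore translation, were not called. Ppp1r15a, the inducible subunit GADD34 and the member of this role with the highest mean FPKM, stood at 46.9 and 28.2 CPM in sham 1 and 2 and 31.0 and 21.8 CPM in TAC 1 and 2. Sham 1 was high, the remaining sham library lay between the TAC libraries, and the log2 fold change was -0.51 (95% interval -1.08 to 0.06, edgeR adjusted p = 0.227). It passed without sham 2 (-0.82, adjusted p = 0.014) and with the replicate number as a block (-0.49, adjusted p = 0.0447), but without sham 1 it was -0.09 (adjusted p = 0.833) and without TAC 2 it was -0.28 (adjusted p = 0.476). All 12 immediate early genes of the list examined were also lower in TAC, 8 of them called, with summed levels of 919.8 and 524.2 CPM in sham 1 and 2 and 214.3 and 212.6 CPM in TAC 1 and 2. The part of these levels in the Ppp1r15a values was not tested. Ppp1r15b, the constitutive subunit, had a log2 fold change of -0.06 (-0.29 to 0.18).

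**Figure D2:**
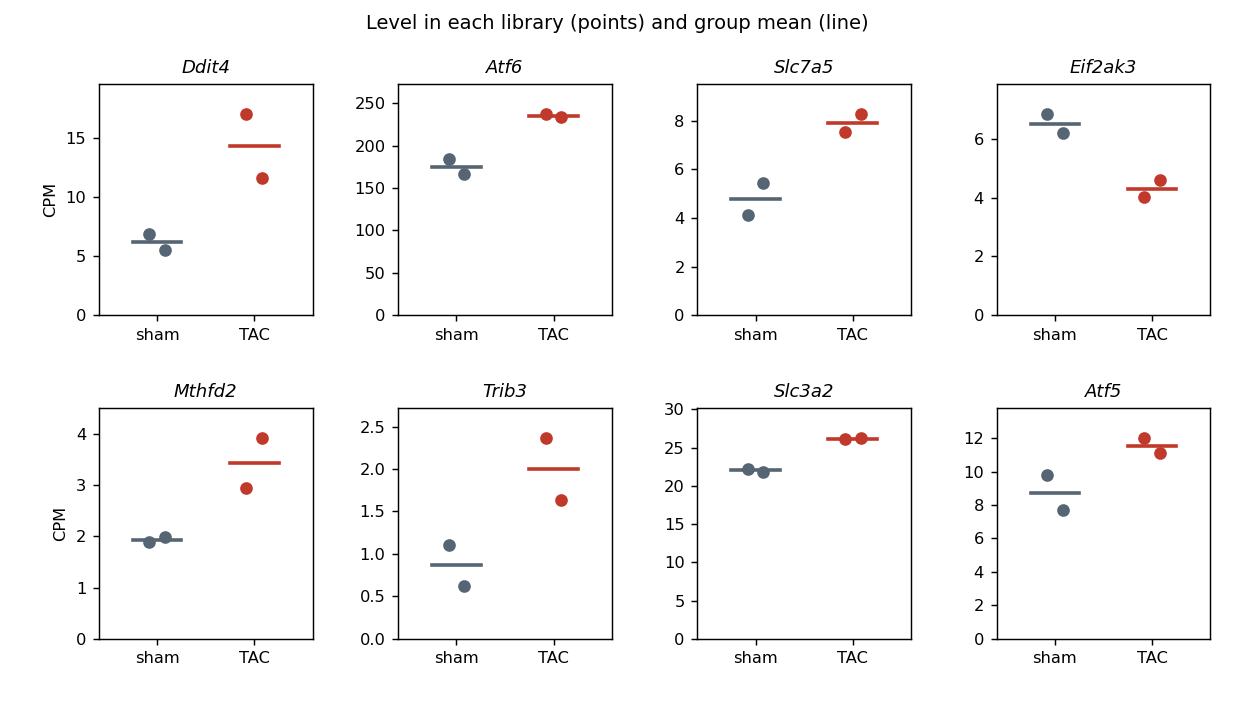
Level in CPM (y axis, from 0) of the 8 members with an unadjusted p under 0.05 in the sham and TAC groups. Points are the 4 libraries and lines are group means, and in all 8 panels the TAC points lie beyond the sham points, below them for Eif2ak3 and above them for the others.

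The upstream DNA of 2 of these genes is shown, as examples from this role with (Chac1) and without (Ddit4) a match to the element of ATF4. The sequences are the 250 bases before the RefSeq start site, read 5′ to 3′ on the gene's strand (GRCm38.p6). Capitals mark a match to TGATGNAA, the core of the element that ATF4 binds with C/EBP partners, searched on both strands. Chac1 lies on the plus strand (chr2:119350992-119351241) and Ddit4 on the minus strand (chr10:59951771-59952020).
Chac1: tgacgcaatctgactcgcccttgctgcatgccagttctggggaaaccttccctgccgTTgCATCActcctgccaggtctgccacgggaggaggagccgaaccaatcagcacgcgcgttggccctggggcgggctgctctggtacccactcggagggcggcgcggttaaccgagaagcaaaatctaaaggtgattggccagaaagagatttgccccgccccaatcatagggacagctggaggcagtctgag
Ddit4: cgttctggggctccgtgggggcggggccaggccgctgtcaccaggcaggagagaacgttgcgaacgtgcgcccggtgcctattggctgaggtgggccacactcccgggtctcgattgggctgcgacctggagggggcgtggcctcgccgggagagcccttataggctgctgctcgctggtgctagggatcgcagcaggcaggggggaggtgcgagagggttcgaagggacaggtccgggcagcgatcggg
In Chac1 the match began 193 bases before the start, on the opposite strand. The Ddit4 window held no match to these letters, which says nothing of sites elsewhere. Over windows of 300 bases (250 before and 50 after the start), TGATGNAA was present in 3.97% of 32851 windows and in 13.2% of the 38 windows of the 36 members that have one. The members were taken as known genes of these responses, so the higher share among them is no independent result. The 5 members with TGATGNAA were Trib3, Chac1, Herpud1, Asns and Pck2. In Trib3 it began 14 bases after the start. The log2 fold changes of the 5 ran from -0.31 to 1.20 with a median of 0.08, the median of all members. None of the 5 was called by edgeR with the main settings, DESeq2 or limma, and 1, Trib3, had an unadjusted p under 0.05. Of all genes, edgeR called 5.01% and 27.5% reached that unadjusted p, so these counts say little about genes with the element. Without the low-count filter Trib3 was called (adjusted p = 0.0461, edgeR).

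No ER chaperone gene passed the test, and chaperones were among the most abundant transcripts of the group. Of the 7 genes none was called by edgeR, DESeq2 or limma, and 0 had an unadjusted p under 0.05. With 5.01% of all genes called and 27.5% at that unadjusted p, a count of 0 in so small a role says little about it. Hspa5, the gene of BiP, which binds unfolded chains and holds the sensors inactive, had the highest mean FPKM of all members at 217, above 98.6% of the genes tested. It stood at 679 and 534 CPM in sham 1 and 2 and 563 and 564 CPM in TAC 1 and 2. The TAC libraries were nearly equal and lay between the sham libraries. The log2 fold change was -0.11, with a 95% interval of -0.37 to 0.16, so that under this fit a rise of more than 0.16 lay outside the interval. Hsp90b1, the gene of the chaperone GRP94, had -0.16 (-0.41 to 0.09) at a mean FPKM of 102.

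Of the other chaperone genes, Hyou1, a nucleotide exchange factor for BiP, had a log2 fold change of 0.12, and the BiP co-chaperone genes had 0.02 (Dnajb9), 0.12 (Dnajb11) and 0.14 (Dnajc3). Dnajc3 was the only one of the 7 whose groups did not overlap, with TAC higher. Of all genes, 29.8% lay higher and 30.3% lower in both TAC libraries than in both sham libraries. Sdf2l1, a partner of the ER J-proteins, had the lowest value of all members at -0.64, but its interval ran from -1.70 to 0.42. Its counts were 128 and 42 in sham 1 and 2 and 50 and 43 in TAC 1 and 2, and sham 1 alone stood apart. Without sham 1 the log2 fold change was 0.28, and without sham 2 it was -1.18. The median of the role was 0.02, and it was 0.18 without sham 1 and -0.17 with total counts.

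Hspa5 and Hsp90b1 carry the ER stress response element through which ATF6 acts together with NF-Y, and their upstream DNA is shown for that reason, beside the called rise of Atf6 mRNA and the values of both genes. Capitals mark the fixed bases of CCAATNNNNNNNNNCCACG on either strand. The 250 bases before the RefSeq start lie at chr2:34771840-34772089 on the plus strand for Hspa5 and at chr10:86705445-86705694 on the minus strand for Hsp90b1.
Hspa5: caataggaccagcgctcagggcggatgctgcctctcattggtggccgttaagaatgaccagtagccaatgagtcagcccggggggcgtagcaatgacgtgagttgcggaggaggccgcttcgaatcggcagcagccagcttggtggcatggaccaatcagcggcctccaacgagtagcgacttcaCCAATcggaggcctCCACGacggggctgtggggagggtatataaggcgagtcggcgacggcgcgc
Hsp90b1: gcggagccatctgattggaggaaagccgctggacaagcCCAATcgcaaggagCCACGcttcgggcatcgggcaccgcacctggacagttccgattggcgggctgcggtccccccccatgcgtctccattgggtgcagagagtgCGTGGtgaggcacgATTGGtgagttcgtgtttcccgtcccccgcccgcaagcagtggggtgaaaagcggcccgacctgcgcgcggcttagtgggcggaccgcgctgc
The match in Hspa5 began 65 bases before the start, and the 2 in Hsp90b1 began 212 and 107 bases before it, the latter on the opposite strand. This full element was in 0.119% of the 32851 windows and in 21.1% of the members' windows. The members were taken as known genes of these responses, so the higher share among them is no independent result. The 8 members with the element were Hspa5, Hsp90b1, Dnajc3, Calr, Canx, Pdia6, Creld2 and Syvn1. Their log2 fold changes ran from -0.16 to 0.26 with a median of 0.00. None of them was called by edgeR, DESeq2 or limma, with 0 at an unadjusted p under 0.05. Of all genes, edgeR called 5.01% and 27.5% reached that unadjusted p, so a count of 0 among 8 genes says little about them. The element TGACGTGG, bound by ATF6 and XBP1, was in 0.676% of all windows and in none of the members'. No window was available here for Atf6, Ppp1r15b, Hyou1, Manf and Slc7a5.

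The lectins and disulfide isomerases, which hold and oxidise folding glycoproteins, gave no call either, with 0 of 5 called by edgeR, DESeq2 or limma, 0 at an unadjusted p under 0.05 (5.01% and 27.5% of all genes) and a median log2 fold change of -0.09. Calr, the calcium-binding lectin calreticulin, had the highest mean FPKM of the role at 83.2. It stood at 198 and 172 CPM in sham 1 and 2 and 183 and 170 CPM in TAC 1 and 2, with overlapping groups and a log2 fold change of -0.06 (95% interval -0.27 to 0.15). Canx, its membrane-bound relative calnexin, had -0.09, and the isomerase genes had -0.13 (Pdia3), -0.32 (Pdia4) and 0.06 (Pdia6). Canx and Pdia4 were lower in both TAC libraries than in both sham libraries, as were 30.3% of all genes. The interval of Pdia4 ran from -0.66 to 0.02.

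The secreted ER proteins gave 2 further readings of the same response. Manf, a stress-induced factor held in the ER until calcium is lost, stood at 32.8 and 20.9 CPM in sham 1 and 2 and 29.2 and 28.1 CPM in TAC 1 and 2. The sham libraries were the highest and the lowest, and the log2 fold change was 0.09 (-0.35 to 0.53). Creld2 had 0.26 (-0.26 to 0.79). Without sham 1 the median of these genes was 0.52, and with total counts it was -0.01.

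The genes of ER-associated degradation, which returns misfolded proteins to the cytosol, were not called either (5.01% of all genes were), and 0 of 4 had an unadjusted p under 0.05 (27.5% of all genes did). Herpud1, a membrane scaffold of the degradation complex, was the third most abundant member by mean FPKM (94.7). It stood at 174 and 189 CPM in sham 1 and 2 and 190 and 177 CPM in TAC 1 and 2. The sham and TAC values interleaved, and the log2 fold change was 0.02 (-0.17 to 0.20). Sel1l and Syvn1, which form the ubiquitin ligase core, had -0.03 (-0.20 to 0.15) and 0.14 (-0.09 to 0.37), and Edem1, which marks glycoproteins for disposal, had 0.02 (-0.38 to 0.42). DESeq2 and limma called none of the 4.

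Sham 1 was the highest library for 11 of the 14 chaperone, lectin, isomerase and secreted genes. The share of all genes with sham 1 highest was not counted, so whether 11 of 14 is unusual is not known. Over all genes the median log2 difference of sham 2 from sham 1 was 0.00. Over all tested members the median log2 difference of sham 2 from sham 1 was -0.15, a shift larger than the median difference between TAC and sham. Sham 1 also had the highest summed levels of the macrophage, fibroblast, endothelial and immediate early lists. Without sham 1 the median log2 fold change of the members was 0.17, and without sham 2 it was 0.00. Whether these levels bear on the chaperone values was not tested.

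**Figure D3:**
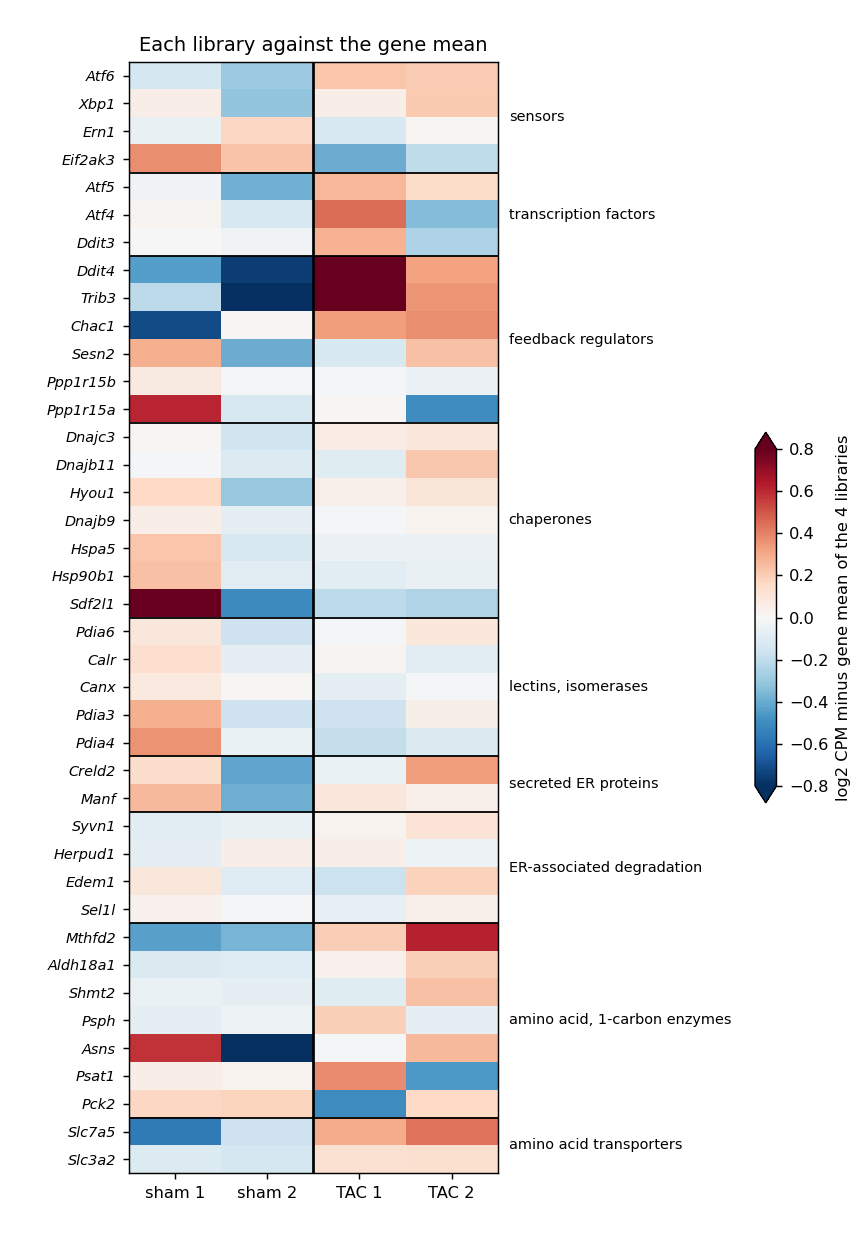
Colour shows log2 CPM of each tested member (rows, by role) in each library (columns) minus the mean of the 4 libraries, saturating at 0.8 in either direction. Sham 1 is red for Hspa5, Hsp90b1, Pdia3, Pdia4 and Sdf2l1, whereas Atf6, Ddit4, Trib3, Mthfd2, Slc7a5 and Slc3a2 are blue in both sham libraries and red in both TAC libraries.

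Of the 8 enzyme genes for amino acid and folate metabolism, known as ATF4 targets, 7 were tested. None was called by edgeR with the main settings, DESeq2 or limma, where 5.01% of all genes were called by edgeR, and 1 had an unadjusted p under 0.05, where 27.5% of all genes did. That gene was Mthfd2, the mitochondrial folate enzyme, with 60 and 57 counts in sham 1 and 2 and 82 and 96 counts in TAC 1 and 2. In CPM these were 1.90, 1.98, 2.94 and 3.93, and the sham values lay close together below both TAC values. The log2 fold change was 0.82 ± 0.25, or 1.77-fold (adjusted p = 0.0961, edgeR), and the adjusted p ran from 0.0493, under a crossed replicate block, to 0.433 over the alternatives. Shmt2, the serine hydroxymethyltransferase that feeds it, had the highest mean FPKM of the role at 13.9. It stood at 30.1 and 29.6 CPM in sham 1 and 2 and 29.2 and 36.8 CPM in TAC 1 and 2. Only TAC 2 was raised, and the log2 fold change was 0.14 (-0.13 to 0.42). Asns, the asparagine synthetase gene, had 58, 20, 34 and 36 counts in the same order and a log2 fold change of 0.08 with a wide interval of -1.03 to 1.18, and sham 1 and sham 2 bracketed the TAC libraries. The serine synthesis genes Psat1 and Psph had -0.01 (-0.86 to 0.83) and 0.13 (-0.48 to 0.73), the proline synthesis gene Aldh18a1 had 0.22 (-0.14 to 0.58), and Pck2, the mitochondrial PEP carboxykinase, had -0.31 (-0.92 to 0.29). At these levels a change of moderate size in Asns, Psat1, Psph or Pck2 was not detectable.

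The chains of the large neutral amino acid transporter lay higher in both TAC libraries than in both sham libraries and were under the unadjusted threshold, without an adjusted call. Of all genes, 29.8% lay higher in this way and 27.5% were under the unadjusted threshold. Slc7a5 (LAT1), the transporting chain that brings leucine into the cell, stood at 4.14 and 5.46 CPM in sham 1 and 2 and 7.53 and 8.26 CPM in TAC 1 and 2. Its lowest TAC value was above its highest sham value, and the log2 fold change was 0.72 ± 0.18, or 1.65-fold (adjusted p = 0.0658, edgeR). Over the alternatives the adjusted p of Slc7a5 ran from 0.0152 to 0.247. Slc3a2 (4F2hc), the partner chain, stood at 22.3 and 21.8 CPM in sham 1 and 2 and 26.1 and 26.3 CPM in TAC 1 and 2. Replicates agreed closely, and the log2 fold change was 0.25 ± 0.09 (adjusted p = 0.132, edgeR).

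The other genes of the pathway, 113 in 8 lists drawn up by role, gave 4 called genes among 108 tested, with 3 higher and 1 lower, against 5.01% of all genes called. Of the 108, 84 had a positive log2 fold change, as had 6140 of all 12499 genes. The median of the 108 was 0.12, which became -0.07 with total counts, while that of all genes went from -0.01 to -0.20. The largest called difference was in Gdf15, the gene of a stress-induced circulating hormone and a known marker of heart failure. It stood at 1.64 and 0.730 CPM in sham 1 and 2 and 8.0 and 4.95 CPM in TAC 1 and 2, 2.43 ± 0.39 on the log2 scale (adjusted p = 0.0207, edgeR). Both TAC values were above both sham values, and over the alternatives the log2 fold change ran from 1.47 to 3.15, the latter without sham 1.

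Among 6 other amino acid transporters tested, Slc38a2 and Slc7a1 changed in opposite directions. Slc38a2 (SNAT2), a sodium-coupled carrier of small neutral amino acids, stood at 216 and 190 CPM in sham 1 and 2 and 509 and 417 CPM in TAC 1 and 2, a 2.28-fold rise or 1.19 ± 0.11 on the log2 scale (adjusted p = 0.00476, edgeR). Slc7a1 (CAT1), the carrier of arginine and lysine, fell from 62.4 and 58.9 CPM in the sham libraries to 34.9 and 34.5 CPM in the TAC libraries, -0.81 ± 0.08 on the log2 scale (adjusted p = 0.00492, edgeR). The groups were far apart in both genes, and the ratio of Slc38a2 to Slc7a1 in CPM was 3.46 and 3.23 in sham and 14.6 and 12.1 in TAC. Both calls held under every alternative run, as did that of Gdf15.

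Eif2b4, a subunit of the exchange factor that eIF2α phosphorylation blocks, was the remaining call. It stood at 24.5 and 26.2 CPM in sham 1 and 2 and 35.7 and 32.6 CPM in TAC 1 and 2, with a difference of 0.43 ± 0.09 on the log2 scale (adjusted p = 0.0468, edgeR). The groups did not overlap, but the call was close to the threshold and was lost in 7 of the alternatives, with adjusted p over all of them from 0.0116 to 0.335. In the same list Eif2ak4, the amino acid sensing kinase GCN2, had -0.64 ± 0.21 (adjusted p = 0.105, edgeR), with 5.53 and 4.80 CPM in sham and 2.91 and 3.72 CPM in TAC. The remaining eIF2α kinase genes of the list were not called either, with -0.37 for Eif2ak2 and 0.04 for Eif2ak1.

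The 20 cytosolic aminoacyl-tRNA synthetase genes, a classic ATF4-responsive group that charges tRNAs for translation, had small positive log2 fold changes in 19 of 20 cases under TMM scaling. In 19 of the 20, both TAC libraries lay above both sham libraries, where 29.8% of all genes did, yet 0 were called by edgeR with the main settings, with 6 at an unadjusted p under 0.05 (27.5% of all genes), while DESeq2 called 1, Aars, and limma 0. Their median log2 fold change was 0.16 with TMM factors and -0.02 with total counts, where that of all genes was -0.01 and -0.20. The sign of their median thus changed with the scaling, while it stayed above the median of all genes. The largest difference was in Cars at 0.39 (adjusted p = 0.143, edgeR), and the lowest adjusted p was 0.0546, for Aars at 0.35. Summed over the list, the level was 775.6 and 824 CPM in sham 1 and 2 and 909.9 and 885.2 CPM in TAC 1 and 2.

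In the 4 other lists tested, edgeR with the main settings called no gene. These lists held 10 folate and amino acid enzymes (median 0.03, 1 gene at an unadjusted p under 0.05) and 16 ER folding genes (0.09, 0 genes). They also held 13 ER-associated degradation genes (0.11, 4 genes) and 19 translocon and glycosylation genes (0.17, 7 genes). Of all genes, 27.5% reached that p. With total counts the medians of all 4 lists were negative, as was that of all genes (-0.20). The limma fit called none in them either. The largest differences in them were in Cth at -0.37, Ero1b at -0.40, Ubxn4 at 0.32 (adjusted p = 0.0609, edgeR) and Sec61g at 0.39. In the list of other stress factors, 5 of 13 tested genes had a positive value, Gdf15 among them, and the median was -0.05. Fgf21, Slc7a3, Slc7a11, Cbs and Derl3 were too low to test.

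**Figure D4:**
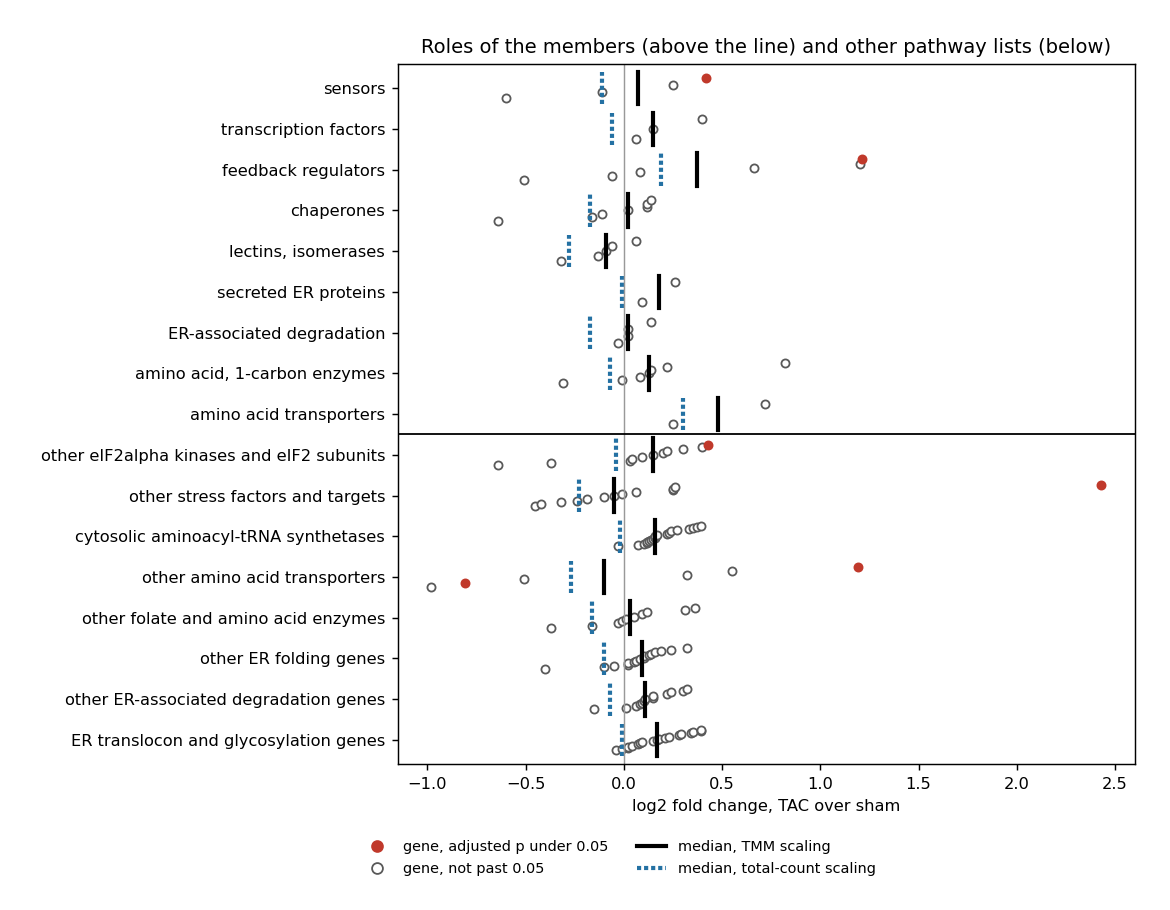
Log2 fold change (x axis) of each tested gene, with members by role above the line and other pathway genes by list below it. Points are genes, filled where called, solid bars are medians with TMM scaling and dotted bars medians with total counts, which lie to the left in every list and below 0 in all but the feedback regulators and the transporters Slc7a5 and Slc3a2.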

How the data were processed

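TRIzol was used to extract total RNA from the cardiomyocytes, and sequencing libraries followed Illumina protocols. For each library the authors deposited expected counts per gene, which need not be whole (1432 to 1519 genes per library were not), and FPKM values. The submitters' processing notes name Bowtie2 2.2.8, StringTie 1.3.1 and mm10. The sources used here do not give strand use, the division of shared fragments or the length behind FPKM. Values of overlapping genes are therefore uncertain, among them Eif2ak3, Atf5, Ddit3, Ppp1r15a, Ppp1r15b, Hsp90b1, Pdia3, Pdia6, Manf, Syvn1, Psph, Shmt2 and Pck2, while Atf6, Ddit4, Trib3, Mthfd2, Slc7a5 and Slc3a2 share no exon with another gene. FPKM was used for levels between genes.

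Expected counts were rounded, filtered with filterByExpr, scaled by TMM (factors 1.097, 1.04, 0.8683 and 1.009 for sham 1, sham 2, TAC 1 and TAC 2), and fitted in R 4.3.3 with edgeR 4.0.16 (glmQLFit, glmQLFTest, no block), with Benjamini-Hochberg adjustment over 12499 genes. The SE is the log2 fold change over the square root of F, and intervals are 95%. The biological coefficient of variation was 10.5%. The script was tested on simulated data. With 2 against 2, an exact permutation p cannot go below 0.333, so p-values rest on spread pooled over genes. Replicates differed by more than sampling noise (chi-square per degree of freedom 8.082 in sham, 26.71 in TAC).

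Alternatives were total counts (the study's scaling), totals without mitochondrial mRNAs, RLE factors, DESeq2 1.42.0, no filter (a total of at least 1 count), a replicate block, limma 3.58.1 on log2(FPKM + 1), and each library left out. Members and lists were chosen with earlier results of these data known. Named with values per library were called members, those with an unadjusted p under 0.05 and the member with the highest mean FPKM in each role. Sdf2l1 and Asns were given per library after their values were seen. In the pathway lists, called genes and the largest absolute log2 fold change per list were named. Aars, a DESeq2 call and the synthetase with the lowest adjusted p, was named after its values were seen. A DESeq2 result for these lists is not reported here. Ddit3 has 2 identifiers in the files, of which one held no count. Gene positions and exon overlaps came from GENCODE M21 and promoters from RefSeq (GRCm38.p6), matched by symbol for 36 of 41 members.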

Additional observations from a re-analysis of the deposited data

How the results depend on the processing

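The 2 called members became 1 (Ddit4 alone) with total counts, with totals without mitochondrial mRNAs and with limma on FPKM, 5 without the low-count filter (Eif2ak3, Atf6, Trib3, Ddit4 and Slc7a5), and 1 to 3 with a library left out. Without TAC 1 the call was Ddit4 alone, without sham 2 the calls were Ddit4, Ppp1r15a and Slc7a5, and without TAC 2 they were Atf6, Atf4 and Ddit4. The median log2 fold change of the members was -0.11 with total counts, -0.03 with totals without mitochondrial mRNAs, -0.08 with limma, and 0.00 to 0.17 with a library left out. The 4 called pathway genes became 12 without the filter and 3 to 9 with a library left out, 9 without TAC 2. Over all genes the calls numbered 528 with total counts, 901 with DESeq2, 1676 without the filter, 214 with limma, 301 without TAC 1 and 1336 without TAC 2, against 626. The labels do not say what a shared number marks, so the numbers were not taken to pair the samples. The methods of the study speak of pairs of sham and TAC mice, without saying which libraries belong together. Same-numbered libraries deviated in opposite directions (correlation -0.242). With 2 libraries per group the crossed numbering has the same value with the sign reversed, so this correlation cannot tell whether samples were paired. The replicate block called 3 members, Atf6, Ddit4 and Ppp1r15a, gave a median of 0.10 over all 40 tested members, and called 3 pathway genes, without Eif2b4. A crossed pairing, chosen after seeing the data, called 5 members and 19 pathway genes. Where a library was left out, the lone one was assumed to vary like the rest. Of the single-member values, 465 kept their direction where called and their side of the threshold, 10 passed it and 5 fell behind it, no called value changed sign, and 64 uncalled values in 23 genes did. The causes were not tested. With 2 libraries per group and levels near 1 CPM, small changes of Trib3, Asns and Psat1 lay within the error.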
